A study of Mus musculus with 2 samples.

Results

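Tbc1d2b, Tbc1d8 and Grtp1 encode Rab GAPs of the TBC family, and they are described here with their nearest named relatives in cells of a mouse podocyte line. The members are the probe sets that the deposited table of GAPs and GEFs, called the regulator table here, lists under Tbc1d2, Tbc1d2b, Tbc1d8, Tbc1d8b, Tbc1d9, Tbc1d9b or Grtp1. Of these 7 names, 6 were found, with 12 of the table's 374 probe sets, or 6 of its 168 genes. Tbc1d2 had no probe set under its name and was not analysed here. Tbc1d9b had 3 probe sets, Tbc1d2b had 1, and each of Tbc1d8, Tbc1d8b, Tbc1d9 and Grtp1 had 2. The leading genes were selected on their log2 differences between the groups in the regulator table, and the lists on names, so the values below are a description. They are not the largest by every measure. By the probe set of highest mean signal, Grtp1 ranked 36 of 151 genes there (0.66). Tbc1d9b ranked 19 (1.29) and is not among the leading genes.

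Podocytes are the epithelial cells that wrap the glomerular capillaries of the kidney. The line comes from a wild-type mouse with the Immorto transgene, which makes a temperature-sensitive viral large T antigen from an interferon-inducible promoter, so both groups carry it. The differentiated cells were kept at 37 °C for at least 10 days with 5% serum and no interferon gamma, and had stopped dividing. The undifferentiated cells were grown at 33 °C on collagen I with interferon gamma, in a permissive medium stated to hold 10% serum and 100 U/ml interferon gamma. Each group was 1 array of 1 line, so no difference has a replicate check and no test across samples was possible. RNA was prepared with an Ambion kit from differentiated cells and a Qiagen kit from undifferentiated cells, so kit, temperature, serum and interferon cannot be told apart. The podocyte label was not checked, because 0 of 12 podocyte markers are among the probe sets named in the files.

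Rab GTPases mark the membranes of endosomes, the Golgi and secretory vesicles and recruit the proteins that move, tether and fuse them. A Rab is active with GTP and inactive with GDP. TBC-domain GAPs speed its GTP hydrolysis with an arginine and a glutamine finger, and so end its signal on a given membrane. In podocytes, endocytosis and recycling of slit diaphragm proteins depend on this traffic, and TBC1D8B is mutated in an inherited human nephrotic syndrome.

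Promoter sequence is shown for the genes of the leading probe sets and, for contrast, for Tbc1d8b, whose probe sets lay within 2-fold in the regulator table. In the array table, described below, Tbc1d8b 1430133_at was higher in differentiated cells, at a log2 difference of 1.01. The contrast therefore holds in the regulator table only. Each run is the 250 bases before a RefSeq transcript start of GRCm38.p6, 5′ to 3′ on the gene's strand. Capitals mark the GC box, GGGCGG or its complement CCGCCC, on either strand. All 6 member genes matched the RefSeq promoter table, and for Tbc1d8 the first of 2 listed starts is shown. The positions are chr9:90270770-90271019 (minus strand) for Tbc1d2b, chr1:39478756-39479005 (minus) for Tbc1d8, chr8:13200625-13200874 (minus) for Grtp1 and chrX:139684746-139684995 (plus) for Tbc1d8b.
Tbc1d2b: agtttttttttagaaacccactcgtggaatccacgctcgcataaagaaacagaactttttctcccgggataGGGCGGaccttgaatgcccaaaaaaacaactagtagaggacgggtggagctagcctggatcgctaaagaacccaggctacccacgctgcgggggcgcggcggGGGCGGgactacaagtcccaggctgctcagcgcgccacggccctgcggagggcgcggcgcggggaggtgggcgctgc
Tbc1d8: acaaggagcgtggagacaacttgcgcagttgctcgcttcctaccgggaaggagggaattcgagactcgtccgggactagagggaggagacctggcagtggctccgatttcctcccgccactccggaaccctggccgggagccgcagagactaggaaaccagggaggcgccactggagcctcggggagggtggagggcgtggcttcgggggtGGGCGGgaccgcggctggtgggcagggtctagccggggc
Grtp1: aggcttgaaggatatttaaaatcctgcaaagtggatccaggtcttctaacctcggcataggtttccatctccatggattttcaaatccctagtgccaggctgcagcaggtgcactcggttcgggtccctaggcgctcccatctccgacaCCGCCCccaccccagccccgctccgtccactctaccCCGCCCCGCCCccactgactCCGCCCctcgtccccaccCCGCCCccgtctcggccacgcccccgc
Tbc1d8b: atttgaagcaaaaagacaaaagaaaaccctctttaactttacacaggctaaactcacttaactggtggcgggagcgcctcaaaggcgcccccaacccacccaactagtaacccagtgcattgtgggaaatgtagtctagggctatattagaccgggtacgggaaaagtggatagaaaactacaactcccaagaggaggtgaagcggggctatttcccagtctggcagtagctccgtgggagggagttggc

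The Grtp1 window held 5 GC boxes, of which 2 overlap, the Tbc1d2b window held 2 and the Tbc1d8b window held 0. The Tbc1d8 window shown held 1, and that of its other listed start held 2. The Tbc1d9b window, not shown, held 1 and the Tbc1d9 window held 0. Of 32851 mouse promoter windows of this length, 32.7% held at least 1. The G and C content was 61.2% for Tbc1d2b, 68.0% for Tbc1d8, 64.0% for Grtp1, 50% for Tbc1d8b, 66.0% for Tbc1d9b and 44.0% for Tbc1d9, against a median of 52.4% over all windows. Of 3 further motifs searched on both strands, CACGTG (6.02% of all windows) and TGANTCA (6.75%) were in no window of the 6 genes, and CCAAT (33.9%) was in the Tbc1d9 window alone. A match is a description of the letters, and an absent match says only that these letters are not in the window.

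The files give 2 sets of signals on a linear array scale. In the regulator table each probe set has a signal, a present or absent call and a standard error in each group. That error is read as the model error over the probes of 1 array (model SE). A second file, the array table, gives a signal for 45037 probe sets without calls, errors or gene names. The undifferentiated signals were equal in both tables within 0.005 units for all 374 probe sets of the regulator table, members included. The differentiated signals were equal for 0 of 374. The regulator table's differentiated column was matched to the differentiated sample by its name, and no source used here gives its origin. The culture and kit details above describe the sample and may not hold for that column. Each differentiated column is therefore named with its table. Comparisons in both tables share the undifferentiated array. The median model SE of the 11 member probe sets called present in at least 1 group was 13.3% of the signal in differentiated and 17.2% in undifferentiated cells, against 10.6% in differentiated and 10.7% in undifferentiated cells over the 313 probe sets so called.

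**Figure D1:**
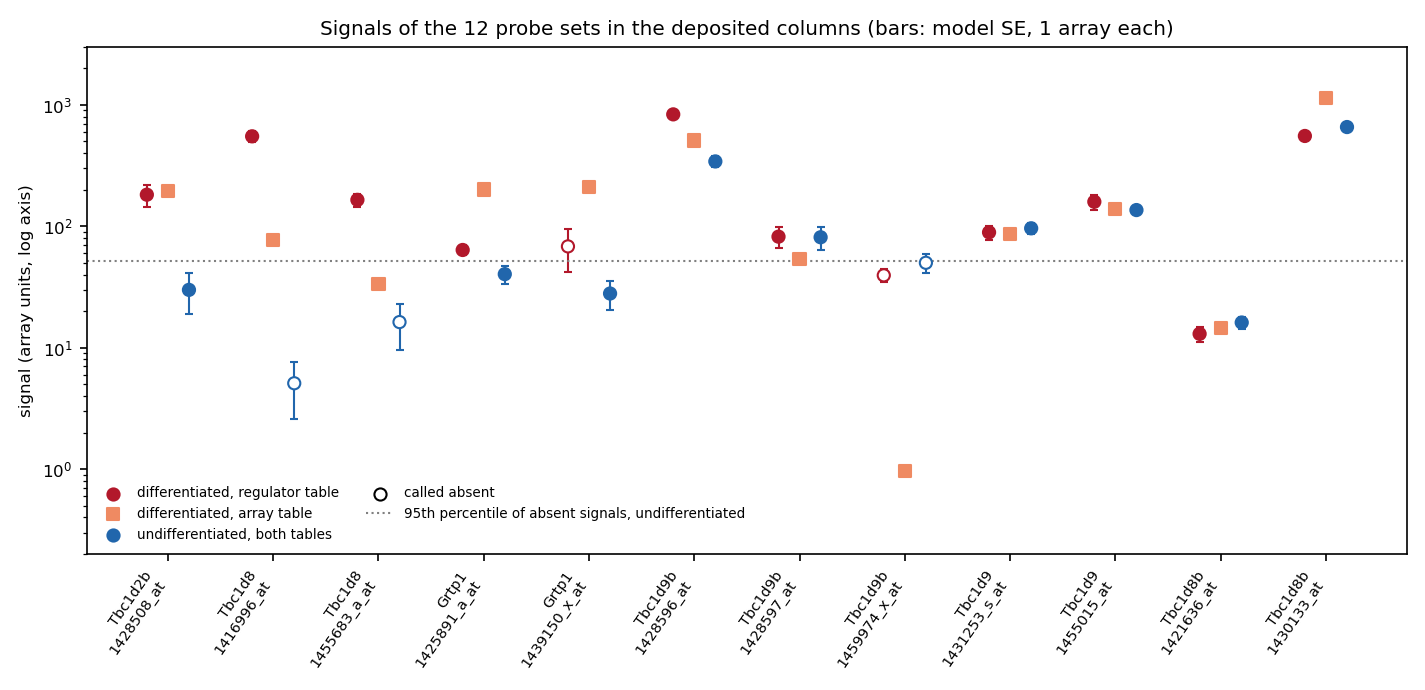
Signal of each of the 12 member probe sets (log axis, array units) in the differentiated column of the regulator table, the differentiated column of the array table and the undifferentiated array, with bars of 1 model SE where the file gives one and open circles for absent calls. Tbc1d2b stood at 182 and 195 in the differentiated columns against 29.9 in undifferentiated cells, while the differentiated columns of Tbc1d8 and Grtp1 stood apart.

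Of the 11 member probe sets present in at least 1 group of the regulator table, 5 were higher in differentiated cells by 2-fold or more, as were 17.6% of all measured probe sets, and 0 were lower by as much, against 7.67%. The 5 belong to Tbc1d8 (2), Tbc1d2b, Tbc1d9b and Grtp1, and 4 of them differed by more than 2 model SE. The rule used this contrast, and the share of all probe sets past 2 model SE was not computed. Nothing is therefore read from either count. In the array table, 4 of 10 measured members were higher by 2-fold or more, against 21.1% of all probe sets, and 1 was lower by as much, against 22.0%. The 4 are the Grtp1 pair, Tbc1d2b and Tbc1d8b 1430133_at, and the lower one is Tbc1d9b 1428597_at, which was within 2-fold as deposited (-0.59) and with equal 75th percentiles (-0.52). The median log2 difference was 0.66 over the members and 0.16 over all measured probe sets of the regulator table, and 0.72 over the members and -0.03 over all in the array table. These values depend on the scaling: with the groups' medians set equal, the median of all probe sets moved by -0.66 in the regulator table and by -0.35 in the array table. It then stood at -0.50 over all measured probe sets of the regulator table and at -0.38 over those of the array table. In RNA of a whole culture, fewer cells that express a gene and less of its RNA per cell cannot be told apart.

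Tbc1d2b has a PH domain beside its TBC domain, and the human protein has been placed on early endosomes, where it binds Rab22. Its probe set 1428508_at read 182 ± 37.2 in differentiated cells and 29.9 ± 11.1 in undifferentiated cells of the regulator table (signal ± model SE). The differentiated signal of the array table was 195, so both differentiated columns lay above the undifferentiated array and within 1.07-fold of each other. The log2 difference was 2.60 ± 0.61 in the regulator table, a 6.08-fold difference. It was 2.29, or 4.89-fold, in the array table after quantile normalization. The undifferentiated signal was called present, yet it lay under 51.5, the 95th percentile of absent-called signals of that group. After normalization of the array table it came to 38.0, just above the floor of 37.6 under which signals were not separated. With medians set equal the log2 difference was 1.94 in the regulator table and 2.10 in the array table.

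Tbc1d8, once named the vascular Rab GAP, has GRAM domains ahead of its TBC domain. Probe set 1416996_at read 551 ± 54.2 and present in differentiated cells, and 5.09 ± 2.52 and absent in undifferentiated cells of the regulator table. The other, 1455683_a_at, read 165 ± 19.8 and present in differentiated cells, against 16.3 ± 6.60 and absent in undifferentiated cells. Both probe sets were thus detected in differentiated cells alone. An absent level was set to the probe set's own signal, or to the group's lowest present signal where that was higher; that lowest signal was 4.91 in undifferentiated cells. By that reference 1416996_at was 108-fold and 1455683_a_at 10.2-fold higher in differentiated cells. These are ratios to the undetected signals themselves, and not lower bounds. Against the 95th percentile of absent-called undifferentiated signals, the differentiated signals were 10.7-fold and 3.21-fold higher. With low signals raised to the table's 40th percentile, the log2 difference of 1416996_at was 3.15 in place of 6.76, and that of 1455683_a_at was 1.41 in place of 3.34.

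The differentiated signals of Tbc1d8 were lower in the array table than in the regulator table. Probe set 1416996_at read 77.7 there in differentiated cells and 5.09 in undifferentiated cells, and 1455683_a_at read 33.3 in differentiated and 16.3 in undifferentiated cells. The differentiated signal of the regulator table was 7.09 times that of the array table for 1416996_at and 4.95 times for 1455683_a_at. After normalization 1416996_at was at least 1.71-fold higher in differentiated cells, since its undifferentiated signal lay under the floor, and 1455683_a_at lay under the floor in both groups. Both tables thus gave 1416996_at a higher differentiated signal. The sizes of its 2 differences are not alike in kind. The same undifferentiated signal was kept at 5.09 in the regulator table and raised to the floor in the array table. The ratio of the array table's signals as deposited was 15.3, and with the floor at the 20th percentile the log2 difference was 2.16 in place of 0.77.

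Grtp1, the growth hormone regulated TBC protein also called Tbc1d6, is a member of the same family. Probe set 1425891_a_at read 63.8 ± 6.20 in differentiated cells and 40.3 ± 6.94 in undifferentiated cells of the regulator table, present in both. Probe set 1439150_x_at read 68.3 ± 26.0 in differentiated cells and 27.9 ± 7.46 in undifferentiated cells. For the second, the call ran against the signal, absent in differentiated and present in undifferentiated cells. Its name ends in x, the array maker's mark for probes that may also bind other transcripts. The log2 differences were 0.66 ± 0.29 and 1.29 ± 0.67, so the second lay within 2 model SE of 0. With medians set equal, 1425891_a_at came to -2.6e-05 and 1439150_x_at to 0.63, against a median of -0.50 over all measured probe sets.

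Grtp1 was brighter in the differentiated column of the array table. Probe set 1425891_a_at read 201 in differentiated and 40.3 in undifferentiated cells, and 1439150_x_at read 212 in differentiated and 27.9 in undifferentiated cells. The differentiated signals of the array table were 3.15 and 3.10 times those of the regulator table, so both probe sets moved alike between the columns. After normalization the log2 differences were 1.94 for 1425891_a_at and at least 2.44 for 1439150_x_at. Grtp1 was therefore past 2-fold in the array table with both probe sets, and in the regulator table with 1439150_x_at alone, whose differentiated signal was not called present.

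**Figure D2:**
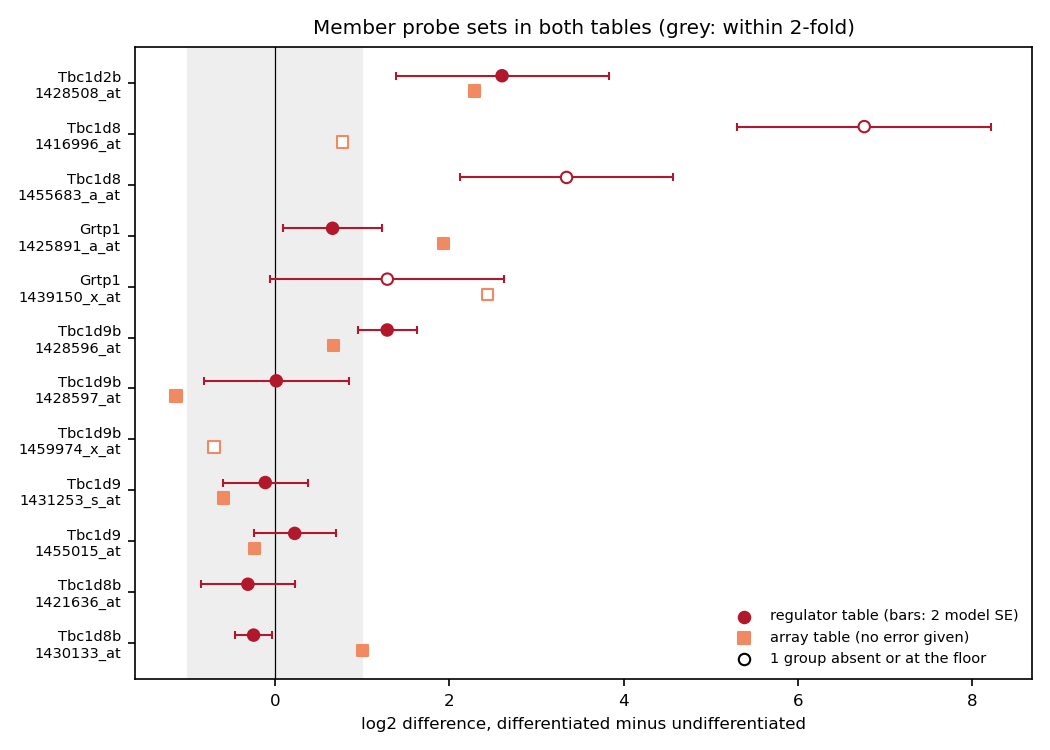
Log2 difference, differentiated minus undifferentiated, of each member probe set in the regulator table (circles, bars of 2 model SE) and in the array table (squares, no error given), with open symbols where 1 group was absent or at the floor and grey for differences within 2-fold. Tbc1d2b lay at 2.60 and 2.29, and Grtp1 1425891_a_at at 0.66 and 1.94. The open symbols of Tbc1d8 1416996_at, 6.76 and 0.77, are set against unlike levels. These were the undetected signal of 5.09 in the regulator table and the floor of 37.6 in the array table.

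Tbc1d9b and Tbc1d9 are GRAM-domain relatives of Tbc1d8, and Tbc1d9b has been described as a Rab11a GAP in canine kidney epithelial cells. Tbc1d9b probe set 1428596_at read 836 ± 48.2 in differentiated cells and 342 ± 34.9 in undifferentiated cells of the regulator table, and 509 in the differentiated column of the array table. Its log2 difference was 1.29 ± 0.17 in the regulator table and 0.67 in the array table. With medians set equal these came to 0.63 and 0.02, both under 2-fold. Probe set 1428597_at read 82.2 ± 15.9 in differentiated and 81.2 ± 17.4 in undifferentiated cells of the regulator table, and 53.9 in the array table's differentiated column. Its log2 difference was 0.016 ± 0.42 in the regulator table and -1.13 in the array table. The first turned to -0.43 after quantile normalization, -0.24 with the 75th percentiles set equal and -0.64 with the medians set equal, and the second fell within 2-fold as deposited (-0.59) and with equal 75th percentiles (-0.52). The remaining probe set, 1459974_x_at, was absent in both groups, at 39.5 ± 4.65 in differentiated and 50.1 ± 8.86 in undifferentiated cells, and 0.97 in the array table's differentiated column.

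Tbc1d9 differed little. Probe set 1455015_at read 159 ± 22.8 in differentiated and 136 ± 10.7 in undifferentiated cells of the regulator table, and 138 in the array table's differentiated column. Probe set 1431253_s_at read 89.2 ± 11.9 in differentiated and 96.3 ± 10.1 in undifferentiated cells, and 86.4 in the other differentiated column. The log2 differences of the regulator table were 0.23 ± 0.24 and -0.11 ± 0.24, both within 1 model SE of 0, and those of the array table were -0.24 and -0.59. The sign of 1455015_at turned with scaling in both tables, to -0.43 with equal medians in the regulator table and to 0.10 with equal 75th percentiles in the array table.

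Tbc1d8b, whose human counterpart binds Rab11, gave signals of very different brightness from its pair of probe sets. Probe set 1430133_at read 555 ± 29.4 in differentiated and 657 ± 34.9 in undifferentiated cells of the regulator table, and 1140 in the array table's differentiated column. Probe set 1421636_at read 13.0 ± 1.94 in differentiated and 16.1 ± 1.85 in undifferentiated cells, and 14.5 in the other differentiated column. All were called present, although the values of 1421636_at lay in both groups under the 95th percentile of absent calls, and in the array table under the floor. The log2 differences of the regulator table were -0.24 ± 0.11 and -0.31 ± 0.27. The brighter probe set, 1430133_at, had the opposite sign in the array table, 1.01, on the 2-fold threshold. It came to 0.24 with equal medians and to 0.79 as deposited.

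The differences nearest the 2-fold threshold in the regulator table were 1.29 for Tbc1d9b 1428596_at and for Grtp1 1439150_x_at, both past it, and 0.66 for Grtp1 1425891_a_at, within 2-fold.

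The 2 differentiated columns were set side by side directly. Of the 11 measured member probe sets, 5 differed by at least 2-fold between the columns as deposited, where 52.7% of all 313 measured probe sets did. The pair of Tbc1d8 probe sets was higher in the regulator table, and the Grtp1 pair and Tbc1d8b 1430133_at were higher in the array table. The median log2 ratio of the regulator table's column over the array table's was 0.05 over members and 0.39 over all. The measured probe sets of Tbc1d2b, Tbc1d9 and Tbc1d9b stayed within 2-fold between the columns. Of 9 member probe sets measured in both tables, 6 had the same sign in both. Of the 9, 2 were higher by 2-fold or more in both, Tbc1d2b 1428508_at and Grtp1 1439150_x_at. In the regulator table that Grtp1 probe set was called absent in differentiated cells and lay within 2 model SE of 0. The matching shares over all probe sets were not computed, so nothing is read from these counts. On the differentiated array of the array table the ratio of 3′ to 5′ signal was 3.77 for Gapdh, 1.54 for beta-actin, 5.93 for pyruvate carboxylase and 1.82 for the transferrin receptor. On the undifferentiated array the ratios were 0.868 for Gapdh, 1.09 for beta-actin, 1.51 for pyruvate carboxylase and 1.94 for the transferrin receptor, so 3 of 4 were higher on the differentiated array. The part of this balance in the members' differences was not tested.

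**Figure D3:**
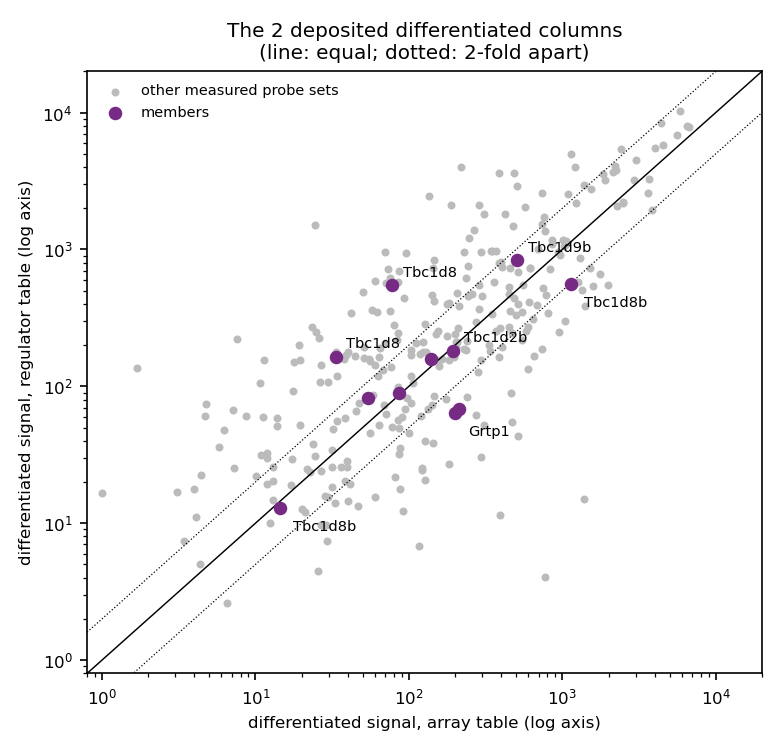
Differentiated signal of each of 313 measured probe sets in the regulator table against that in the array table (log axes, array units), with members in purple, a line of equality and dotted lines at 2-fold. Tbc1d2b lay at 182 and 195, while Tbc1d8 lay above the upper dotted line and Grtp1 below the lower one.

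Other Rab GAPs of the table were read by 1 probe set per gene, the brightest. Of the 20 listed, 19 were measured by that probe set. The brightest probe set of the remaining gene, Tbc1d22a, was called absent in both groups, although another of its probe sets was measured. Of the 19, 1 was higher in differentiated cells by 2-fold or more, against 18.5% of all 151 genes. Of the same 19, 2 were lower by as much, against 6.62%. Their median log2 difference was -0.02, and that of all genes was 0.17. Of the 6 member genes, 3 were higher by 2-fold or more and 0 lower, with a median of 0.97. The leading genes were selected on these same differences, so no contrast between members and other Rab GAPs is read from these values. By the array table, 1 of 18 other Rab GAPs was higher by 2-fold or more and 3 were lower, against 14.6% and 27.0% of the 137 genes measured there. With equal medians in the regulator table, 0 of the 19 other Rab GAPs were higher by 2-fold and 6 lower. Over all 313 measured probe sets, 23 were then higher and 72 lower, with a median log2 difference of -0.50.

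Tbc1d24, which is mutated in human epilepsies, read 964 in differentiated and 366 in undifferentiated cells of the regulator table, a log2 difference of 1.40 ± 0.09. Its probe sets ranged from -0.05 to 1.40 with a mean of 0.87, under 2-fold, so by the mean over probe sets 0 of the other Rab GAPs were higher by 2-fold. The array table gave the brightest probe set of Tbc1d24 the opposite sign, -0.68. Usp6nl, a Rab5 GAP that binds Eps8, read 472 in differentiated and 1093 in undifferentiated cells, with -1.21 ± 0.27, and had -1.07 in the array table. Tbc1d1, a target of Akt and AMPK in glucose transport, read 135 in differentiated and 345 in undifferentiated cells, with -1.36 ± 0.49, and had 0.91 in the array table. Of these 3 genes, Usp6nl alone was past 2-fold in the same direction in both tables.

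Further Rab GAPs were named for the highest differentiated signals, which do not rank expression between genes. Tbc1d15, a Rab7 GAP linked to mitochondria, read 3556 in differentiated and 3186 in undifferentiated cells (log2 difference 0.16 ± 0.24). Rabgap1, a GAP of Rab6, read 2028 in differentiated and 1264 in undifferentiated cells (0.68 ± 0.22). Tbc1d20, a Rab1 GAP of the endoplasmic reticulum, read 1366 in differentiated and 1817 in undifferentiated cells (-0.41 ± 0.09). In the array table the same probe sets had -0.52 for Tbc1d15 and -0.94 for Rabgap1, which thus turned sign, while Tbc1d20 kept its own.

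**Figure D4:**
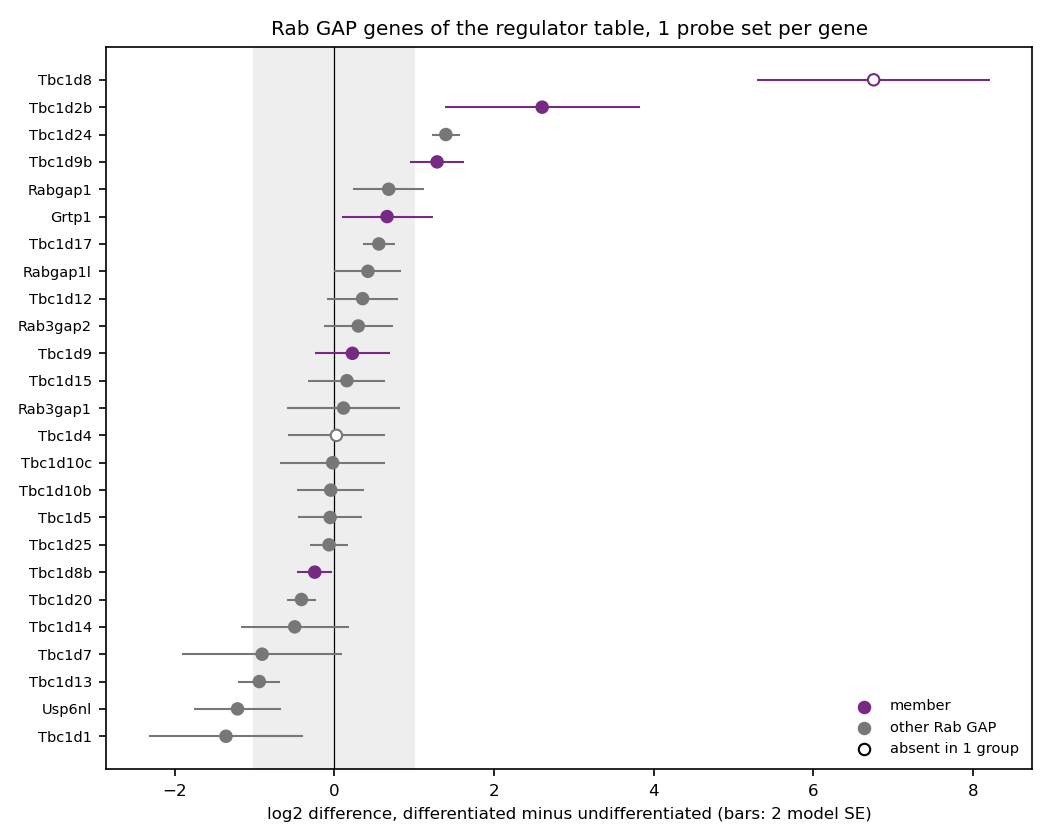
Log2 difference, differentiated minus undifferentiated, of each Rab GAP gene in the regulator table by its brightest probe set, with bars of 2 model SE, members in purple and open circles for genes absent in 1 group. Tbc1d8 (6.76, against an undetected signal) and Tbc1d2b (2.60) stood highest, and Usp6nl (-1.21) and Tbc1d1 (-1.36) lowest.

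The genes most like each leading member were found by the distance between log2 differences in both tables, over 136 other genes and the 2 comparisons, which share the undifferentiated array. Nearest to Tbc1d2b was Arap2, an Arf GAP, at a distance of 0.36, with 2.61 in the regulator table and 1.93 in the array table. Rgs2 (0.62) and Chn2 (0.76) followed. Nearest to Grtp1 was Chm, the Rab escort protein that presents Rabs for prenylation, at 0.25, with 0.49 and 1.74, before Arhgap12 (0.39) and Rgs20 (0.43). For Tbc1d8 the listed genes were Arhgap24 (3.39), Srgap3 (3.44) and Rgs2 (3.91). These distances rest on the levels set in each table for the undetected undifferentiated signal of Tbc1d8. Rgs2 and Rgs20 rest on undetected undifferentiated signals as well. For Tbc1d2b and Grtp1 the distances are near the model SE of the member's own regulator table difference, 0.61 and 0.29. The order of their nearest genes is therefore not resolved.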

How the data were processed

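RNA of differentiated and undifferentiated cells was measured on Affymetrix mouse genome arrays, 1 per group, with groups taken from the sample titles. The authors deposited intensity values per probe set on a linear scale; per the labels, dChip was used for the differentiated sample, with version and normalization not given. No scaling was added to the regulator table. A probe set was measured if called present in at least 1 group. Gene IDs were matched to RefSeq names of GRCm38.p6 (167 of 168). The array table was raised to at least 1, quantile-normalized on the log2 scale and floored at the 40th percentile, 37.6. Both model SEs were propagated to a log2 difference. Changes are named by size, 2-fold, with no test. Named genes are all members, other Rab GAPs past 2-fold or among the 3 brightest, and the 3 most alike genes per leading member. Members and lists were chosen with earlier results of these data known. Alternative scalings, floors and thresholds were tried. Calculations used Python 3.11.15, numpy 2.4.6 and pandas 2.3.3, and were tested on simulated data. The number of arrays limits the precision.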

Additional observations from a re-analysis of the deposited data

How the results depend on the processing

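The count of 5 member probe sets past 2-fold in the regulator table became 3 with medians set equal, 3 at a 4-fold threshold and 2 when presence in both groups was required, which removes Tbc1d8 and Grtp1 1439150_x_at. It stayed between 4 and 6 under the other 5 alternatives, all of them higher in differentiated cells. Over all 313 measured probe sets, 23 were higher and 72 lower with equal medians, and 16 higher and 8 lower at 4-fold. With presence in both groups required, 43 of 264 were higher and 22 lower. The count of 3 other Rab GAPs became 6 with equal medians, 5 with equal 75th percentiles, 6 at a 1.5-fold threshold and 0 at a 4-fold threshold. By the mean over a gene's probe sets it was 2, both lower. Over all 313 measured probe sets, 41 were higher and 33 lower with equal 75th percentiles, and 84 higher and 41 lower at 1.5-fold. In the array table the 5 member probe sets became 1 with a floor at the 60th percentile, which raises the low signals of Tbc1d2b (0.63) and Grtp1 (0.67 and 0.76), 9 at a 1.5-fold and 2 at a 4-fold threshold. Over all its probe sets, 4268 of 21627 were higher and 4436 lower with that floor. Of 31831, 9731 were higher and 10153 lower at 1.5-fold, and 2637 higher and 2674 lower at 4-fold. In all, 2 values past 2-fold in the array table turned sign with the other differentiated column: Tbc1d8b 1430133_at (-0.24) and Tbc1d9b 1428597_at (0.016). The second is within 1 model SE of 0 and turned back to -0.43 after quantile normalization of the regulator table; for Tbc1d8b the cause was not tested.

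Over all probe sets of the regulator table, 69.6% of those past 2-fold were higher as deposited. The share was 57.5% after quantile normalization, 55.4% with the 75th percentiles set equal and 24.2% with the medians set equal. In the array table the share was 48.9%, and 32.7% with equal medians. In the regulator table alternatives put Tbc1d2b between 1.54 with a pseudocount of 50 and 2.49 after quantile normalization, all under the deposited 2.60. They put Tbc1d8 1416996_at between 3.15 with low signals raised and 6.64 after quantile normalization, all under the deposited 6.76. The other differentiated column is left out of these ranges. No paired analysis was possible because each group has 1 array. Low undifferentiated signals limit the folds of Tbc1d2b, Tbc1d8 and Grtp1.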

Other observations

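Calls and signals did not follow each other closely at this level. The highest absent-called signal of the regulator table was 525 in differentiated and 511 in undifferentiated cells, both from Tbc1d22a 1451107_at, while Tbc1d8b 1421636_at was called present at 13.0 in differentiated and 16.1 in undifferentiated cells. The median absent-called signal was 14.7 in differentiated and 13.6 in undifferentiated cells. Tbc1d22a was chosen after its values were seen.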
